A study of Mus musculus with 6 samples.

Results

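The intestinal identity transcription factors examined here were 8 genes taken by name from the deposited table, Cdx1, Cdx2, Hnf4a, Hnf4g, Gata4, Gata6, Klf4 and Klf5, out of 52249 genes in all. Each name matched 1 row. The libraries came from organoids of mouse intestine (self-organising epithelial cultures) and were sequenced from the 3′ ends of messenger RNAs, so that long and short transcripts give counts on 1 scale. In every library Apc, which encodes a scaffold of the complex that degrades beta-catenin, was knocked out. A first group of 3 libraries carried the Apc knockout alone and is called knockout-only, and 3 libraries carried the Apc knockout with IGF2BP3 overexpression, IGF2BP3 being an RNA-binding protein that stabilises messenger RNAs. The labels do not give the vector, the promoter, the species of the transgene, the animals or clones of origin, the part of the intestine, or whether replicates were separate cultures, so that p-values measure only the spread between these libraries.

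The 8 factors are known for fixing what kind of epithelium the gut lining becomes. CDX1 and CDX2 are homeodomain proteins that separate intestine from stomach, and HNF4A and HNF4G are nuclear receptors that switch on the absorptive genes of enterocytes. GATA4 and GATA6 are zinc finger proteins that help set regional identity, GATA4 mainly in the upper small intestine and GATA6 along its length. KLF4 and KLF5 are zinc finger proteins that bind related GC-rich and CACCC sequences, KLF4 acting mostly in differentiated cells and KLF5 in dividing crypt cells.

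Total counts ran from 2180116 to 2519917 per library. The deposited Igf2bp3 row held 1, 0 and 0 counts in knockout-only libraries and 1, 0 and 0 counts in the others, in replicate order, so the table gave no check of the label and the second group is called OE-labelled. Apc had 182, 174 and 164 counts in knockout-only and 158, 151 and 148 counts in OE-labelled libraries. Its log2 fold change, OE-labelled minus knockout-only, was -0.37 (SE 0.12, edgeR adjusted p = 0.0323). Counts from 3′ ends do not tell mutant transcripts from intact ones. The library names put the groups in separate series, so that library series and group cannot be told apart in any comparison. Mitochondrial ribosomal RNA took 8.93% to 9.41% of counts in knockout-only libraries and 3.89% to 4.36% in OE-labelled libraries. All 7 epithelial markers were counted in every library, with a summed level of 4190 to 4430 CPM in knockout-only and 5470 to 6220 CPM in OE-labelled libraries (CPM, the count scaled by the effective library size). The 9 mesenchymal markers summed to 0.922 to 3.28 CPM in knockout-only and 0.846 to 1.97 CPM in OE-labelled libraries, with Col1a2, Col3a1, Pdgfrb, Lum and Dcn at 0 throughout. The 4 endothelial markers summed to at most 1.38 CPM, with Cdh5 at 0. Of 7 immune markers, Cd3e, Cd79a, Lyz2 and Adgre1 were at 0, whereas Csf1r was counted at 30.6 CPM in knockout-only and 49.1 CPM in OE-labelled libraries and Cd68 at 15.6 and 17.6 CPM.

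Regulatory sequence of 3 of the 8 genes was read from RefSeq promoter entries (GRCm38.p6). These windows are shown because intestinal transcription factors are known to bind each other's promoters. Entries were matched for Klf4, Hnf4a and Cdx2, and not for Cdx1, Hnf4g, Gata4, Gata6 or Klf5. Each window holds 200 bases, from 250 to 51 bases before the annotated start, written 5′ to 3′ on the gene's own strand. Capitals mark matches on either strand to 5 short motifs. The motif searched for GATA proteins was GATAA, that for CDX proteins was TTTATG and that for HNF4 receptors was CAAAGT. For KLF proteins the CACCC box was searched as CCACCC and the box of G and C that SP proteins also bind as GGGCGG. Matches of the KLF motifs can share bases with each other.
Klf4, chr4:55532526-55532725, minus strand: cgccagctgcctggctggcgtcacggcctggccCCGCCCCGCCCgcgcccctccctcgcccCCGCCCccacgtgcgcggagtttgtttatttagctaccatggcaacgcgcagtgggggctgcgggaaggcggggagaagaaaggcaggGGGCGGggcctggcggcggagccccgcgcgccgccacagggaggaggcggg
Cdx2, chr5:147307300-147307499, minus strand: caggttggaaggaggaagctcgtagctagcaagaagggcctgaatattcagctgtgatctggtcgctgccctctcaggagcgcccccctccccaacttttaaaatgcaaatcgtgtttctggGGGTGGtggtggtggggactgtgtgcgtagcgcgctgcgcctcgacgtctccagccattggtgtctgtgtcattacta
Hnf4a, chr2:163506607-163506806, plus strand, upstream of the more 5′ of its RefSeq starts: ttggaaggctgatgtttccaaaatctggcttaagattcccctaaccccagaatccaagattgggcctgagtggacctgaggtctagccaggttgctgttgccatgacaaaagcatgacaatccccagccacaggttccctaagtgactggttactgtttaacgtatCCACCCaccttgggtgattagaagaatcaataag
The Klf4 window held 4 boxes of G and C, and 24.6% of the 32851 promoter windows of the same length hold at least 1. It had a GC content of 76.5% and 24 CpG dinucleotides, against medians of 51.5% and 4 over all windows. The Cdx2 and Hnf4a windows each held 1 CACCC box, found in 22.4% of all windows. No GATA, CDX or HNF4 match lay in these 3 windows, where 19.3%, 8.8% and 10.5% of all windows hold one. A match describes letters, not a bound site.

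In these organoids the 8 factors were present at very unequal levels. Klf5 was the most abundant at a mean of 1210 CPM over the 6 libraries, followed by Klf4 at 167 CPM, Gata6 at 96 CPM, Hnf4a at 70 CPM and Cdx2 at 11.5 CPM. Hnf4g averaged 1.42 CPM and Gata4 0.154 CPM, and Cdx1 was not counted at all. The libraries' ranges were separate at each step of this order from Klf5 to Gata6 and from Hnf4a to Hnf4g. Gata6 and Hnf4a overlapped, since the lowest Gata6 value was 68.1 CPM and the highest Hnf4a value 77.4 CPM, and the 3 scarcest genes were not separated from each other. Among the genes tested, Klf5 stood at the 99.3rd percentile of mean log2 level, Klf4 at the 90.7th, Gata6 at the 81.7th, Hnf4a at the 75.3rd and Cdx2 at the 20.8th.

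**Figure D1:**
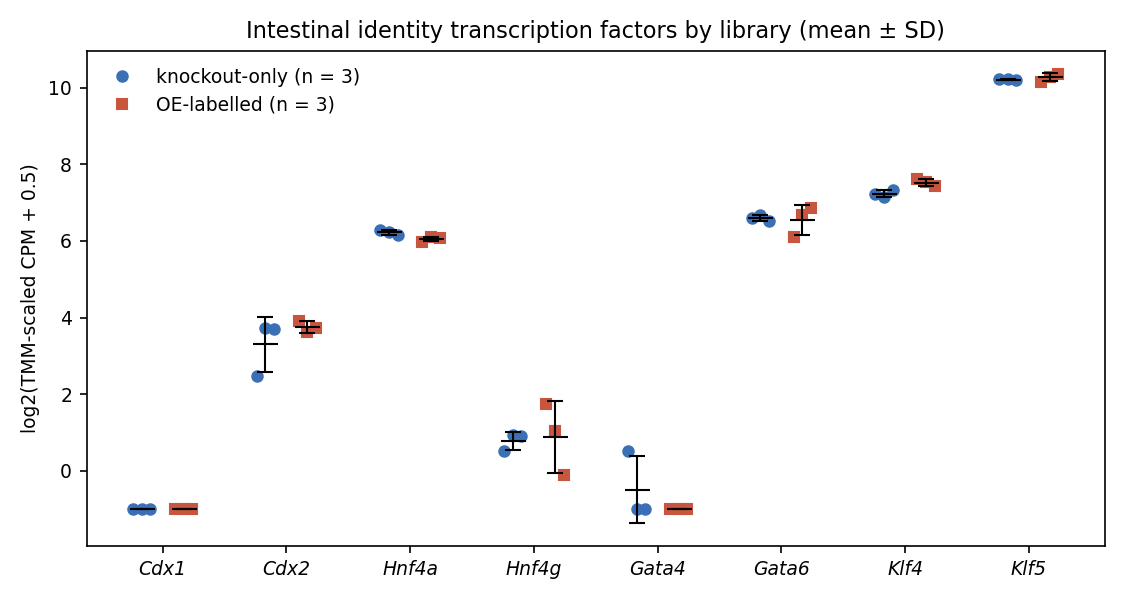
Level of each of the 8 factors, as log2 of TMM-scaled CPM plus 0.5 on the vertical axis, in the 3 knockout-only libraries (circles) and the 3 OE-labelled libraries (squares), with black bars for mean ± SD on that scale. Klf5 is highest in every library, Cdx1 lies at the bottom with 0 counts in all 6, and the OE-labelled libraries of Gata6 are spread from 68.1 to 116 CPM.

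The fit across all genes tested 10687 genes, of which 29.2% passed an adjusted p of 0.05 (edgeR's quasi-likelihood test, Benjamini-Hochberg), 16.5% higher and 12.7% lower in OE-labelled libraries. Of the 8 factors, 5 passed the filter on low counts, each above it in all 6 libraries, and 0 of the 5 passed the test. With an unadjusted p under 0.05 there was 1, Klf4, and DESeq2 and limma-voom also called 0. Their median log2 fold change was 0.06, beside 0.041 over all tested genes. Ranges of CPM did not overlap between groups for Hnf4a, lower in OE-labelled libraries, and for Klf4, higher in them. Over all tested genes 45.7% had ranges that did not overlap, 25.3% with the OE-labelled libraries higher and 20.5% with them lower.

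Cdx1 (ENSMUSG00000024619, GRCm38 chromosome 18, 61018862 to 61036199, minus strand) had 0 counts in all 6 libraries. A count of 0 allows up to 3 counts, or 1.18 to 1.41 CPM by library, counting error only, so Cdx1 was not detectable at this depth in either group. Cdx2 (ENSMUSG00000029646, minus strand of chromosome 5, 147300805 to 147307270) was the CDX gene these organoids expressed. Its counts were 11, 27 and 27 in knockout-only libraries and 36, 30 and 30 in OE-labelled libraries, which is 5.07, 12.7 and 12.4 CPM against 14.6, 11.8 and 12.7 CPM. Knockout-only replicate 1 lay below all other libraries, and the remaining knockout-only and OE-labelled values overlapped. The Cdx2 log2 fold change was 0.37 (SE 0.31, 95% interval -0.29 to 1.03, edgeR adjusted p = 0.383). Without knockout-only replicate 1 it was 0.05 (edgeR adjusted p = 0.913), and with an offset for GC content it was 0.13. Cdx4, the third member of the family, had 0 counts in every library.

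Among the nuclear receptors Hnf4a (ENSMUSG00000017950, plus strand of chromosome 2, 163506808 to 163572910) carried nearly all the counts. It had 168, 159 and 154 counts in knockout-only and 155, 173 and 157 counts in OE-labelled libraries, or 77.4, 74.6 and 71 CPM against 62.8, 68 and 66.4 CPM. All 3 OE-labelled values lay below the knockout-only values on this scale, though the raw counts overlapped. The means were 74.3 ± 3.25 CPM and 65.7 ± 2.67 CPM (SD, n = 3), giving a log2 fold change of -0.18 (SE 0.12, 95% interval -0.43 to 0.08, edgeR adjusted p = 0.282). With the GC offset the Hnf4a value was -0.35 (edgeR adjusted p = 0.0574). The antisense gene Hnf4aos overlaps Hnf4a over 34913 bases and had at most 1 count in any library. Gene counts do not separate transcripts that begin at the different Hnf4a starts.

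Hnf4g (ENSMUSG00000017688, plus strand of chromosome 3, 3508030 to 3658052), the paralogue known to share much of the work of HNF4A in the intestine, had 2, 3 and 3 counts in knockout-only and 7, 4 and 1 counts in OE-labelled libraries. It failed the filter. The pooled counts were 8 and 12, a ratio of OE-labelled to knockout-only of 1.32 with a 95% exact Poisson interval of 0.49 to 3.71 that covers counting error only. The log2 ratio of Hnf4a to Hnf4g within a library was 5.68 ± 0.34 in knockout-only and 5.45 ± 1.18 in OE-labelled libraries (SD, n = 3, exact permutation p = 0.8, two-sided, adjusted 0.8 over 2 pairs; 3 against 3 libraries cannot go below 0.1).

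Gata4 (ENSMUSG00000021944, minus strand of chromosome 14, 63198922 to 63271692) had 2 counts in knockout-only replicate 1 and 0 in the other 5 libraries, all under the floor of 3 counts. Gata6 (ENSMUSG00000005836, plus strand of chromosome 18, 11052064 to 11085635) had 209, 218 and 200 counts in knockout-only and 168, 257 and 274 counts in OE-labelled libraries. These were 96.3, 102 and 92.1 CPM against 68.1, 101 and 116 CPM, so OE-labelled replicate 1 was the lowest and replicate 3 the highest of all 6. The Gata6 log2 fold change was -0.03 (SE 0.17, 95% interval -0.39 to 0.33, edgeR adjusted p = 0.915), and without OE-labelled replicate 1 it was 0.11 (edgeR adjusted p = 0.521). Its means were 96.9 ± 5.09 CPM and 95 ± 24.5 CPM (SD, n = 3). Gata6 overlaps 504 bases of the opposite-strand gene 1010001N08Rik, which had 27 to 43 counts per library. The spread of Gata6 among OE-labelled libraries was 15.36 times the variance of counting noise (chi-square over its degrees of freedom), against 0.57 times among knockout-only libraries. Klf5 was at 15.05 and 0.21 times, Klf4 at 1.75 and 1.37 times, Hnf4a at 0.27 and 0.31 times and Cdx2, the other way, at 0.39 and 4.02 times. This ratio grows with the count, and the coefficient of variation among OE-labelled libraries was 25.8% for Gata6, 7.1% for Klf5 and 6.3% for Klf4.

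Klf4 (ENSMUSG00000003032, minus strand of chromosome 4, 55527143 to 55532466) came nearest to the threshold. It had 326, 301 and 349 counts in knockout-only and 479, 472 and 405 counts in OE-labelled libraries, or 150, 141 and 161 CPM against 194, 186 and 171 CPM. Every OE-labelled value lay above every knockout-only value. The means were 151 ± 9.8 CPM and 184 ± 11.5 CPM (SD, n = 3), giving a log2 fold change of 0.28 (SE 0.11, 95% interval 0.05 to 0.52, unadjusted p = 0.0211, edgeR adjusted p = 0.0651). Klf4 passed when libraries were scaled by their totals (0.33, edgeR adjusted p = 0.0311) and without OE-labelled replicate 3 (0.34, edgeR adjusted p = 0.0253). In the other 17 of 19 alternatives Klf4 did not pass, and over all 19 its value ran from 0.09 to 0.34. With the GC offset the value was 0.09 (edgeR adjusted p = 0.624).

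Klf5 (ENSMUSG00000005148, plus strand of chromosome 14, 99298691 to 99315036) had 2572, 2532 and 2536 counts in knockout-only and 2818, 3173 and 3111 counts in OE-labelled libraries. The CPM values were 1190, 1190 and 1170 against 1140, 1250 and 1320, and OE-labelled replicate 1 was the lowest of all 6. With this many counts the interval was the narrowest of the 5, a log2 fold change of 0.06 (SE 0.09, 95% interval -0.13 to 0.26, edgeR adjusted p = 0.628). The log2 ratio of Klf4 to Klf5 was -2.98, -3.07 and -2.86 in knockout-only and -2.56, -2.75 and -2.94 in OE-labelled libraries. The groups overlapped, and the mean difference of 0.22 had an exact permutation p of 0.2 (two-sided, adjusted 0.4 over 2 pairs). All ratios were taken with 0.5 added to each count. The ratios of Cdx1 to Cdx2 and of Gata4 to Gata6 were not tested, because the pooled counts of Cdx1 and Gata4 were too few. Cdx1 had 0 pooled counts in both groups, and Gata4 had 2 in knockout-only and 0 in OE-labelled libraries.

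**Figure D2:**
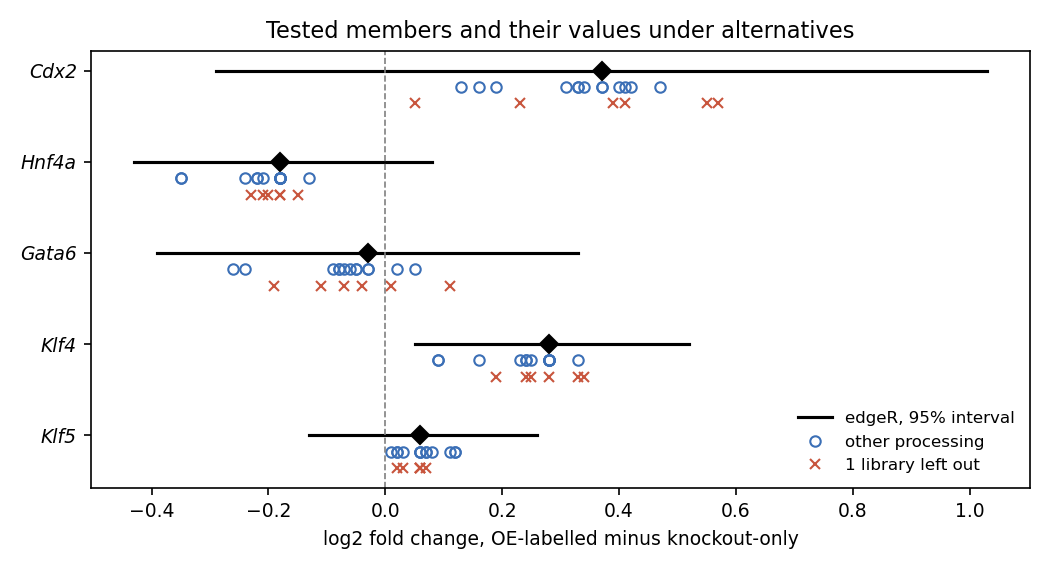
Log2 fold change of the 5 tested factors, OE-labelled minus knockout-only, on the horizontal axis: diamonds and bars give the edgeR estimate with its 95% interval, open circles the other processing settings and crosses the fits that left out 1 library. The Klf4 interval of 0.05 to 0.52 is the only one of the 5 that excludes 0 before adjustment, and the Cdx2 interval is the widest.

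Log2 fold changes in the whole comparison followed transcript GC content, with a Spearman rho of 0.37 across 10679 genes, which share the same 6 libraries. The longest transcript of the tested factors had a GC content of 57.5% for Cdx2, 55.3% for Gata6, 54.6% for Klf4, 53.7% for Hnf4a and 47.9% for Klf5. With the offset for GC content Gata6 was at -0.24 (edgeR adjusted p = 0.333) and Klf5 at 0.12 (edgeR adjusted p = 0.393), and the values of Cdx2, Hnf4a and Klf4 are given with each gene.

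By the likeness rule, the genes whose mean-centred log2 CPM over the 6 libraries lay closest to Klf4 among 5124 candidates were Ugt1a7c (Euclidean distance 0.09), Ccnk (0.12) and Grasp (0.13). Their log2 fold changes were 0.31, 0.34 and 0.27, with edgeR adjusted p of 0.0622, 0.0729 and 0.069. Since they were chosen for their match to Klf4 in these libraries, their like fold changes follow from the choice. All 3 passed without OE-labelled replicate 3, as Klf4 did (0.35, 0.42 and 0.29, edgeR adjusted p of 0.0411, 0.0258 and 0.0472), which follows from the same choice.

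Among relatives of the 8 factors the largest changes were those of Klf6 and Klf11. Of 20 other KLF, GATA and CDX genes, 10 were tested, 1 rose and 2 fell, which is near the 29.2% called over all tested genes, with a median log2 fold change of -0.04. Klf6, a widely expressed KLF protein, fell from 301 ± 16.1 CPM to 155 ± 38.3 CPM (SD, n = 3), with a log2 change of -0.96 (SE 0.16, edgeR adjusted p = 0.000983). Its counts were 677, 602 and 669 in knockout-only and 274, 459 and 411 in OE-labelled libraries, with no overlap. Klf11 rose from 23, 16 and 21 counts to 57, 59 and 39 counts (1.17, SE 0.24, edgeR adjusted p = 0.0036). Klf13 fell by 0.34 (SE 0.1, edgeR adjusted p = 0.0264), and did not pass with the exonic length offset (-0.22, edgeR adjusted p = 0.149) or without knockout-only replicate 1, 2 or 3 (-0.38, -0.32 and -0.34, edgeR adjusted p of 0.0689, 0.119 and 0.104). In those 3 fits 1893, 1837 and 1748 of all tested genes passed, against 3118 with all 6 libraries. Calls given below as lost without a knockout-only library stand beside the same fall. Of the GATA genes, Gata5 was counted at 19.5 CPM in knockout-only and 25.9 CPM in OE-labelled libraries (0.41, edgeR adjusted p = 0.234) and Gata3 at 7.09 and 5.97 CPM (-0.25, edgeR adjusted p = 0.621), while Gata1 and Gata2 had 0 counts.

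Other transcription factors of the intestine and endoderm were called about as often as genes in general. Of 21 listed, 16 were tested, 1 rose and 4 fell, 31.2% in all beside 29.2% of all tested genes, with a median log2 fold change of 0.15. Vdr, the vitamin D receptor, rose from 24, 26 and 27 counts to 60, 82 and 64 counts (1.23, SE 0.2, edgeR adjusted p = 0.00104). The epithelial ETS factor Ehf fell from 515 ± 20.2 CPM to 333 ± 24.5 CPM (SD, n = 3; -0.63, SE 0.1, edgeR adjusted p = 0.000803). Maf, a leucine zipper factor, fell by 0.78 (SE 0.13, edgeR adjusted p = 0.000874), Grhl2 by 0.71 (edgeR adjusted p = 0.00722) and Tcf7l2, the WNT effector, by 0.43 (edgeR adjusted p = 0.0146). Tcf7l2 no longer passed with the GC offset (-0.34, edgeR adjusted p = 0.0554), or without knockout-only replicate 1, 2 or 3 (-0.44, -0.4 and -0.46, edgeR adjusted p of 0.0595, 0.0792 and 0.0525). Onecut2, the most abundant of the list, was at 1670 and 2010 CPM (0.27, edgeR adjusted p = 0.067), and passed without OE-labelled replicate 2 (0.33, edgeR adjusted p = 0.0312) or under the GC offset (0.48, edgeR adjusted p = 0.00933). The pioneer factor Foxa2 was at 150 and 178 CPM (0.25, edgeR adjusted p = 0.147).

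**Figure D3:**
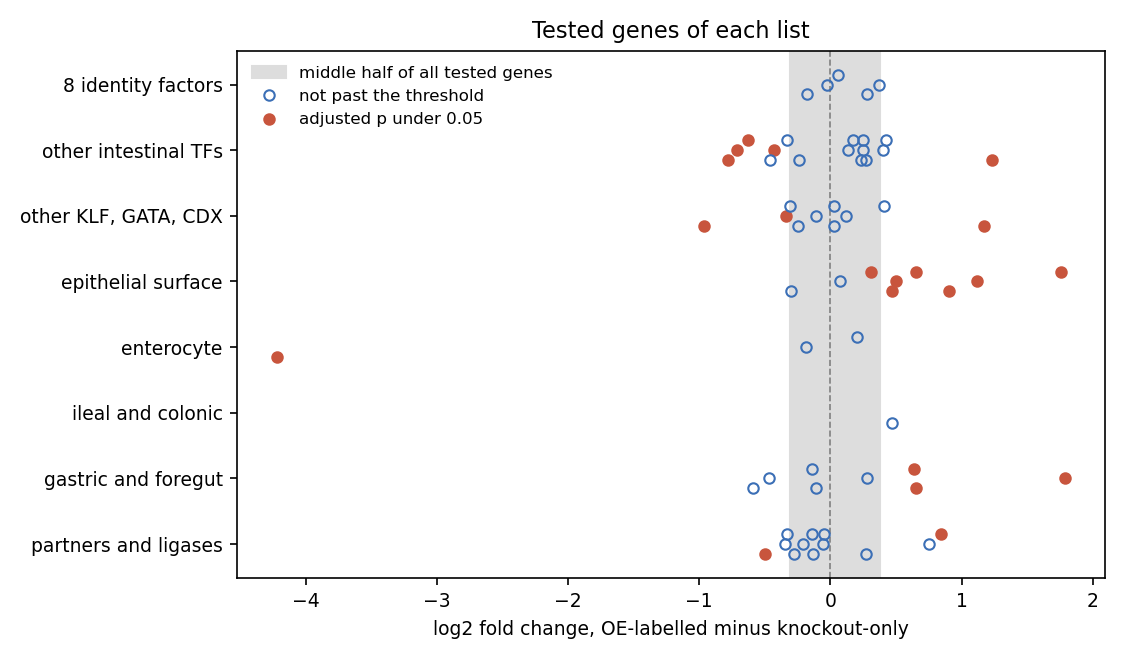
Log2 fold change, OE-labelled minus knockout-only, of each tested gene of the 8 identity factors and of 7 companion lists, with filled points for an edgeR adjusted p under 0.05, open points for the rest and a grey band from the lower to the upper quartile of all tested genes (-0.31 to 0.38). The 5 tested identity factors lie between -0.18 and 0.37 with no filled point, while 7 epithelial surface genes are filled on the right.

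Genes of the intestinal epithelial surface, several of them known targets of CDX2, were mostly higher in OE-labelled libraries. Of 14 listed, 9 were tested, 7 rose and 0 fell, beside 16.5% higher and 12.7% lower of all tested genes, with a median log2 fold change of 0.5. Gpa33, a surface antigen of intestinal epithelium, had 158, 174 and 136 counts in knockout-only and 294, 313 and 387 counts in OE-labelled libraries (0.9, SE 0.15, edgeR adjusted p = 0.0011). Vil1, the microvillus protein villin, rose from 68.6 ± 0.545 CPM to 108 ± 11.5 CPM (SD, n = 3; 0.65, SE 0.12, edgeR adjusted p = 0.0022). Cdh17, the cadherin of intestinal epithelium, rose from 308, 267 and 253 counts to 445, 483 and 384 counts (0.47, SE 0.12, edgeR adjusted p = 0.00994). Ezr, which links actin to the microvillus membrane, rose by 0.5 (SE 0.1, edgeR adjusted p = 0.00418). The Cdh17 value did not pass without knockout-only replicate 2 or 3 (0.46 and 0.41, edgeR adjusted p of 0.0583 and 0.0723) or without OE-labelled replicate 2 (0.39, edgeR adjusted p = 0.0603). In these 4 genes every OE-labelled CPM value lay above every knockout-only value, as in 25.3% of all tested genes.

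The remaining 3 genes that passed, whose CPM ranges did not overlap either, were Lgals4 (0.31, edgeR adjusted p = 0.0279), Cdhr5 (1.12, edgeR adjusted p = 0.0484) and Myo1a (1.76, edgeR adjusted p = 0.0369). Each of these lost its call without any 1 of the knockout-only libraries and without OE-labelled replicate 2: Lgals4 was then at 0.26 to 0.34 (edgeR adjusted p from 0.0859 to 0.159), Cdhr5 at 0.74 to 1.45 (from 0.0573 to 0.204) and Myo1a at 1.19 to 2.16 (from 0.0684 to 0.107). Myo1a also did not pass without OE-labelled replicate 1 (1.32, edgeR adjusted p = 0.0873). Of the 9 tested genes 6 were above the filter in all 6 libraries, namely Cdh17, Gpa33, Vil1, Lgals4 and Ezr, which rose, and Epcam, which was not called. Myo1a was above it only in OE-labelled libraries and had to differ, so its call, included in the count of 7, is no support in itself. Cdhr5 had 12, 14 and 4 counts in knockout-only and 24, 34 and 17 counts in OE-labelled libraries. It was under the filter in knockout-only replicate 3 and needed OE-labelled libraries to pass it. The Cdhr5 call, also in the count of 7, is thus no support in itself either. With the GC offset 4 of 9 rose, namely Cdh17, Gpa33, Vil1 and Ezr, and 3 of 11 rose without knockout-only replicate 2 or without knockout-only replicate 3, as did 3 of 9 without OE-labelled replicate 2. Over all tested genes 1378 of 10679 rose with the GC offset and 1227 of 10869 without OE-labelled replicate 2. Without knockout-only replicate 2 or 3 the all-gene counts were 1079 of 10965 and 1033 of 10966. The general epithelial gene Epcam was at 432 and 455 CPM (0.07, edgeR adjusted p = 0.586), the keratins Krt8 and Krt18 rose by 0.74 and 0.92 (edgeR adjusted p = 0.000324 and 7.22e-05), and the tight junction gene Cldn7 fell by 1.09 (edgeR adjusted p = 0.000177), with mean levels of 203 and 95.1 CPM. Of the 7 epithelial markers 4 rose and 1 fell, beside 16.5% higher and 12.7% lower of all tested genes. Cdh1, the most abundant of these markers in knockout-only libraries, was at 1400 and 1280 CPM (-0.12, edgeR adjusted p = 0.528). The part of the lower mitochondrial ribosomal RNA share of OE-labelled libraries in these differences was not tested, except that 5 of 8 rose when mitochondrial genes and CT010467.1, a ribosomal RNA gene, were left out. In that fit 1491 of 10650 tested genes rose. In bulk libraries more cells that express a gene and more RNA per cell cannot be told apart.

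**Figure D4:**
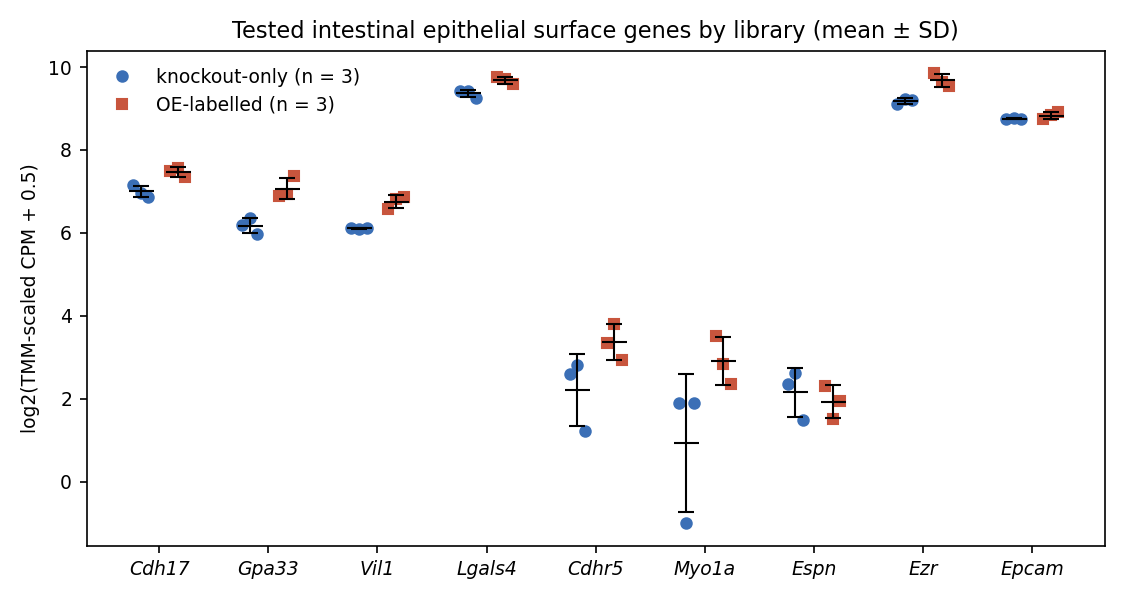
Level of the 9 tested intestinal epithelial surface genes, as log2 of TMM-scaled CPM plus 0.5 on the vertical axis, in 3 knockout-only libraries (circles) and 3 OE-labelled libraries (squares), with black bars for mean ± SD on that scale. Vil1, Gpa33, Cdh17, Ezr, Lgals4, Cdhr5 and Myo1a are higher in every OE-labelled library than in any knockout-only library. Espn and Epcam overlap, and Myo1a has 0 counts in 1 knockout-only library.

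The absorptive genes that HNF4 and GATA4 are known to drive were almost absent from both groups. Of 20 enterocyte genes 8 had 0 counts in all libraries, among them Apoa1, Apoa4, Fabp1, Sis and Alpi, and 3 were tested. The whole list summed to 29.9 to 37.5 CPM in knockout-only and 22.7 to 39.3 CPM in OE-labelled libraries. Apob, the scaffold of chylomicrons, fell from 39 pooled counts to 2, a ratio of 0.04 with a 95% exact Poisson interval of 0.01 to 0.17 for counting error (edgeR adjusted p = 0.000532). Its counts were 10, 13 and 16 in knockout-only and 1, 0 and 1 in OE-labelled libraries, so it passed the count filter only through the knockout-only group and had to differ, and its call is no support in itself. Mttp, which loads lipid onto apolipoprotein B, was at 6.97 and 6.1 CPM (-0.19, edgeR adjusted p = 0.712), and the peptidase Dpp4 at 19.8 and 22.7 CPM (0.2, edgeR adjusted p = 0.566). Hnf4a, at 74.3 and 65.7 CPM, was thus counted at a higher level than that list as a whole.

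Regional markers were sparse. Of 13 ileal and colonic genes 12 were in the table, 8 of these had 0 counts in all libraries and 1 was tested. This was Slc10a2, the ileal bile acid transporter, at 13.1 and 18.2 CPM (0.47, edgeR adjusted p = 0.218), which with the GC offset was at 0.8 (edgeR adjusted p = 0.0431). Fgf15, of the same list, went the other way at 3.87 and 1.37 CPM, with overlapping ranges, and failed the count filter. In the fit with no count filter 4 of the list were tested, 0 rose and 1 fell. Over all genes 1629 rose and 1657 fell of 18991 in that fit. The colonic genes Car1, Slc26a3 and Aqp8 were at 0.

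Gastric and foregut genes, which CDX2 is known to hold down, were partly present. Of 18 listed, 8 were tested, 3 rose and 0 fell, 37.5% in all beside 29.2% of all tested genes, at a median of 0.09 on the log2 scale. With the GC offset 3 rose and 2 fell, beside 1378 higher and 1074 lower of 10679 tested genes. The genes summed to 687 to 721 CPM in knockout-only and 1030 to 1130 CPM in OE-labelled libraries. Most of that sum was Krt7, a keratin not particular to the stomach, which rose from 538 ± 14.5 CPM to 840 ± 73.3 CPM (SD, n = 3; 0.64, SE 0.1, edgeR adjusted p = 0.000664). Tff2, a trefoil peptide of gastric mucus, rose from 68, 92 and 70 counts to 263, 302 and 340 counts (1.79, SE 0.16, edgeR adjusted p = 3.16e-05). Ctse, the protease cathepsin E, rose by 0.65 (SE 0.18, edgeR adjusted p = 0.0196), but did not pass without knockout-only replicate 1, 2 or 3 (0.61, 0.66 and 0.67, edgeR adjusted p of 0.081, 0.0674 and 0.0651) or without OE-labelled replicate 2 (0.53, edgeR adjusted p = 0.0875). The foregut regulator Sox2 and the gastric genes Gkn2 and Barx1 had 0 counts, and Muc5ac and Muc6 had 1 count each in 1 library. Pdx1, the homeodomain factor of duodenum and pancreas, was at 25.9 and 17.2 CPM (-0.59, edgeR adjusted p = 0.0857), and passed with the GC offset (-0.8, edgeR adjusted p = 0.0264), as did Psca (-0.47, and -0.71 with that offset, edgeR adjusted p = 0.149 and 0.0445).

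The number of calls among partners of the factors varied with the processing. Of 14 listed cofactors and ubiquitin ligases 12 were tested, 1 rose and 1 fell, 16.7% in all beside 29.2% of all tested genes, with a median log2 fold change of -0.14. Ppargc1a, a coactivator of HNF4A, had 15, 14 and 11 counts in knockout-only and 28, 29 and 25 counts in OE-labelled libraries (0.84, SE 0.26, edgeR adjusted p = 0.0295). Ppargc1a passed without OE-labelled replicate 3 and in none of the other 5 fits that left out 1 library (0.72 to 0.93, edgeR adjusted p from 0.0614 to 0.124). Wwp1, a ligase that marks KLF5 for degradation, fell from 40.4 ± 4.09 CPM to 28.5 ± 3.11 CPM (SD, n = 3; -0.5, SE 0.16, edgeR adjusted p = 0.0325), and did not pass with the GC offset (-0.23, edgeR adjusted p = 0.376). Without single libraries Wwp1 passed when OE-labelled replicate 1 was left out and in none of the other 5 fits (-0.57 to -0.43, edgeR adjusted p from 0.0539 to 0.139). With DESeq2 0 of the 12 passed, against 1 higher and 3 lower with DESeq2 size factors in edgeR. Fbxw7, another ligase of KLF5, was at 90.9 and 74.6 CPM (-0.28, edgeR adjusted p = 0.16), and Zfpm1, the GATA cofactor FOG1, at 70.8 and 56.2 CPM (-0.33, edgeR adjusted p = 0.0571). Zfpm1 passed without OE-labelled replicate 1 (-0.44, edgeR adjusted p = 0.0133) and with the GC offset (-0.55, edgeR adjusted p = 0.00725).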

How the data were processed

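The table that the authors deposited holds estimated counts, not normalized, for 52249 mouse genes in 6 columns, and 3.1% of its values above 0 were fractional. Per the submitters' processing notes, STAR, HTSeq and the builds mm10 and GRCm38 were used; annotation, strand and molecular identifiers are not given in the sources used here. Per the labels' protocols, QuantSeq 3′ forward libraries were made from 500 ng of total RNA. Each column was matched to its sample by library name, and groups and replicate numbers came from titles. The design had assumed counts that might not be whole, and values were rounded.

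The comparison was fitted over all 6 libraries, without covariates, with edgeR 4.0.16 (R 4.3.3): filterByExpr, TMM scaling, quasi-likelihood test, Benjamini-Hochberg over 10687 genes. The SE was taken as estimate over root F. Floors are 3 counts. Poisson intervals and floors cover counting error only, and they count reads without stated identifiers as independent molecules, which they are not. The edgeR intervals also take in the spread between libraries. Positions, GC content and exonic length came from GENCODE M21 (99.5% of identifiers matched). Alternatives included DESeq2 1.42.0, limma-voom (limma 3.58.1), other scalings and filters, equal depth, the replicate block, GC and length offsets (loess, span 0.5) and leaving out each library. The fit was tested on simulated data in which 200 of 10687 genes had a log2 change of 1. It called 78% of these, and 4.9% of its calls were false. Smaller changes of single genes were not simulated.

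The members and lists were chosen with earlier results of these data known, and the lists were written from general knowledge; some genes of 1 list are not reported here and were left out of its counts. The named genes were the members, Igf2bp3, up to 4 called genes with the smallest p in each of 7 companion lists, and the 3 genes most like the member with the smallest p. All further genes in the text were picked with their values in view.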

Additional observations from a re-analysis of the deposited data

How the results depend on the processing

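With 2 exceptions, 0 of the tested factors passed in the alternatives run: 1 passed with library totals and 1 without OE-labelled replicate 3, Klf4 in both (0.33 and 0.34); fits leaving out single libraries gave 0 to 1. Klf4 ran from 0.19 to 0.34 in those fits, Cdx2 from 0.05 to 0.57, Hnf4a from -0.23 to -0.15 and Klf5 from 0.02 to 0.07, none with a change of sign. Gata6 was 0.02 with library totals and 0.05 with the exonic length offset, between -0.19 and 0.11 without single libraries, and lowest at -0.24 with the GC offset and -0.26 with offset and block. The Hnf4a to Hnf4g difference of log2 ratios, -0.23, ran from -0.86 to 0.31 and the Klf4 to Klf5 difference from 0.13 to 0.32. Genes called between groups ran from 1748 to 3532 without single libraries, against 3118; the lowest 3 values, 1748 to 1893, came without a knockout-only library, and 1578 passed at an adjusted p under 0.01. The share of calls that were higher was 56.6% under TMM, 49.9% under DESeq2 size factors and 63.8% under library totals, where the all-gene medians were 0.041, -0.003 and 0.089. The count of 7 surface genes, whose alternatives were added after it was seen, was 4 with the GC offset and 3 to 7 without single libraries. For 39 other named genes, 648 of 740 values kept direction and call, 61 no longer passed, 26 newly passed and 5 changed sign. These 5 were Epcam with the GC offset (-0.07, also with the block) and the length offset (-0.11), Mttp (-0.42 to 0.08 without single libraries) and Dpp4 (-0.03 to 0.32 without single libraries).

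Titles share replicate numbers without saying that a number marks a shared culture. Deviations of equally numbered libraries correlated at 0.1, 0.02 and 0.07, and those of unequally numbered libraries at -0.11 to 0.04. With the replicate block 3112 genes passed, 2958 of them shared, and 0 factors passed; Klf4 was 0.28, Cdx2 0.4, Hnf4a -0.18, Gata6 -0.05 and Klf5 0.06, and the paralogue differences were -0.23 and 0.22. With block and GC offset 2694 genes passed, and 0 factors.

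Depth limits Cdx1 and Gata4, which lay under the floor, Hnf4g, which failed the count filter, and Cdx2, whose interval is wide.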
